A study of Mus musculus with 36 samples.

Results

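Chromosome 10 was examined as a block of neighbouring genes, by asking how high its genes stood, along its whole length, in each of 10 mouse astrocyte lines. The members were 509 of the 46078 genes in the count table. They were the protein-coding genes of mouse chromosome 10 (GRCm38) with 100 or more counts summed over 36 libraries, after 19 genes had been left out, 15 by name and 4 as ribosomal protein genes. Of 979 protein-coding genes on the chromosome, 451 had fewer counts. Slc39a5 with 97 counts and Matk with 98 fell just outside the count minimum, and Lrrc75b with 100 and Slc35f1 with 101 just inside. The chromosome itself was chosen by a measured value, its low level in the lot 6 female line relative to the lot 6 male line, so that difference is given below as a description and nothing is supported with it. The 451 genes under the minimum together had 13.7 CPM (counts scaled to library size) in the lot 8 male line and 30.3 CPM in the lot 12 female line, the lowest and highest of the 10 lines.

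The cells were mouse astrocytes, labelled as transformed, of genotype Nf1-/- DNp53. That is, they lacked the Ras regulator Nf1 and had a dominant-negative form of p53. They were grown in DMEM/F12 with fetal bovine serum. They had been derived from 5 separate litters, called lots 6, 7, 8, 11 and 12, with 1 female and 1 male line from each. This genotype is common to all 10 lines, so none serves as a control with working Nf1 and p53. Each line of lots 6 and 12 gave 3 libraries, and each line of lots 7, 8 and 11 gave 4. With 1 line per sex and lot, a difference between the partners of a lot cannot be told apart from a difference between single lines, while sex as such is represented by 5 lines each. Whether the libraries of 1 line came from different cultures is not stated in the labels, and p-values therefore measure only the spread between libraries, which may be technical.

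Library totals ranged from 4358098 to 7562901 counts, so that 3 counts corresponded to 0.397 to 0.688 CPM. The astrocyte label was checked against 10 markers, of which 3 exceeded 1 CPM as a mean over lines, and their sum was 12.4 to 25.6 CPM per line, with Gfap at 0 to 0.498 CPM and Gjb6 at 0. All 4 neural progenitor markers exceeded 1 CPM on that mean, led by Vim, though Pax6 was at 0.192 CPM in the lot 8 male line. The 7 fibroblast and pericyte markers summed to 14900 CPM in the lot 6 female line, 5540 CPM in the lot 6 male line, 11700 CPM in the lot 12 male line and 1380 CPM in the lot 7 male line, the lowest, with Lum at 0. Nearly all of that sum was Acta2, while Col1a1 and Col1a2 stood lower in the lot 6 female line, at 20.1 and 23.7 CPM, than in its male partner, at 205 and 480 CPM. Microglia and macrophage markers summed to at most 6.56 CPM, and markers of oligodendrocytes and endothelium to at most 0.485 and 0.406 CPM. Neuron markers summed to 7.94 to 55.7 CPM, highest in the lot 12 male line, with Rbfox3 and Snap25 at 0.

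A chromosome present in an extra copy, or missing one, tends to change the RNA of most of its genes by a similar modest factor, because each copy is transcribed. Such changes of whole chromosomes are common in transformed cells and in cells without p53 function. RNA levels alone do not show copy number, since genes on one chromosome can also rise or fall through their own regulation. For scale, 3 copies against 2 correspond to a log2 ratio of 0.58 where RNA follows DNA in proportion, and 1 against 2 to -1.0. DNA copy number was not measured in these data.

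Of the 509 members, 425 had an entry in the RefSeq promoter table (GRCm38.p6), which holds 250 bases before to 50 after each gene's start, and 4 are shown because they belong to abundant genes spread over the chromosome whose values are described below. They run 5′ to 3′ on the gene's own strand, and capitals mark the GC box (GGGCGG) and the ETS core (CGGAAG), searched on both strands.
Ppa1, chr10:61648371-61648670, plus strand: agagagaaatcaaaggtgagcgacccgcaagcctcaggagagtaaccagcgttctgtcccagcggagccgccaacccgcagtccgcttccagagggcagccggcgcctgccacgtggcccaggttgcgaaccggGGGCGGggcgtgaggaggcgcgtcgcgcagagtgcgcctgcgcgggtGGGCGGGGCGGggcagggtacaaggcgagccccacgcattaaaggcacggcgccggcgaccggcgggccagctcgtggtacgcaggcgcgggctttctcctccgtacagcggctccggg
Mif, chr10:75860228-75860527, minus strand: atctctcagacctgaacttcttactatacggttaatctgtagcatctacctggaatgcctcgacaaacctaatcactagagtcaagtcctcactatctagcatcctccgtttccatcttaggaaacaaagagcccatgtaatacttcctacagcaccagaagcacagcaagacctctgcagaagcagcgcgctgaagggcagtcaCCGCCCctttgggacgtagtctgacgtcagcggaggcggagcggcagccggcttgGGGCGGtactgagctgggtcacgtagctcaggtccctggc
Slc25a3, chr10:91123918-91124217, minus strand: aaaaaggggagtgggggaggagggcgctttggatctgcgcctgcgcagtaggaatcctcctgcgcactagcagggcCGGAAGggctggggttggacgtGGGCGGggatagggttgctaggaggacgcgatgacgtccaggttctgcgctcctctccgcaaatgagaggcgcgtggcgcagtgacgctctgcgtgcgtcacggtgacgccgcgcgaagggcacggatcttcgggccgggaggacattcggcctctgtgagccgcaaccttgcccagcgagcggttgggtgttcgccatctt
Ccdc59, chr10:105841229-105841528, plus strand: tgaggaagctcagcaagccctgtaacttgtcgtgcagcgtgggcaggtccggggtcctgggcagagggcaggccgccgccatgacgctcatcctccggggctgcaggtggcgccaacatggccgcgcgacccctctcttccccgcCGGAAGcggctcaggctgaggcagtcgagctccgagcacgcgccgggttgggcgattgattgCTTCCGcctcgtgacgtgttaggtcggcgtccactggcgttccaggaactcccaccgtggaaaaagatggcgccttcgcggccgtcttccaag
The Ppa1 window held 3 GC boxes, of which a pair overlapped, that of Mif 2 and that of Slc25a3 1, while Ccdc59 had 2 ETS cores and Slc25a3 1. None of these 4 windows held the TATA box letters TATAAA or the CCAAT box. Over the 425 members with an entry, a GC box was present in 71.8%, an ETS core in 35.5%, a CCAAT box in 37.9% and a TATA box in 6.82%. Over the 27025 genes in the table, expressed or not, the shares were 35.9%, 17.2%, 37.9% and 14.2%, and the median GC content was 52.7% against 63.7% for the members. These are matches of letters and not sites of binding.

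The level of the chromosome was highest in the lot 6 male line and next highest in the lot 12 male line, and lowest in the lot 6 female line. For each library, every member's log2 CPM was set against its mean over reference lines of other lots, and the median over members was taken minus the median over the 10169 protein-coding genes of the other autosomes with 100 or more counts. The reference was the 8 lines of lots 7, 8, 11 and 12 for the lot 6 lines, and otherwise the 6 lines of the other lots except lot 6. On this scale the 3 libraries of the lot 6 male line stood at 0.37, 0.38 and 0.43, a mean of 0.39 ± 0.03 (SD, n = 3), which is 1.31-fold. Those of the lot 6 female line stood at -0.20, -0.23 and -0.20, a mean of -0.21 ± 0.021 (SD, n = 3). The male line lay farther from the reference than the female line did. With reference lines of the same sex only, the female line stood at -0.13 and the male line at 0.31. In bulk RNA, more RNA per cell and more cells of a kind cannot be told apart.

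The lot 12 male libraries stood at 0.37, 0.39 and 0.17, a mean of 0.31 ± 0.122 (SD, n = 3), with replicate 3 lower than the others, and the mean without it was 0.38. Its partner, the lot 12 female line, was at -0.01 ± 0.087 (SD, n = 3), and its replicate 3 was likewise the lowest of the line, at -0.10. The female lines of lots 7 and 8 were at -0.14 ± 0.026 and -0.16 ± 0.035 (SD, n = 4), close to the lot 6 female line. The remaining lines lay between -0.09 ± 0.033 in the lot 8 male line and 0.09 ± 0.071 in the lot 11 male line (SD, n = 4).

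**Figure D1:**
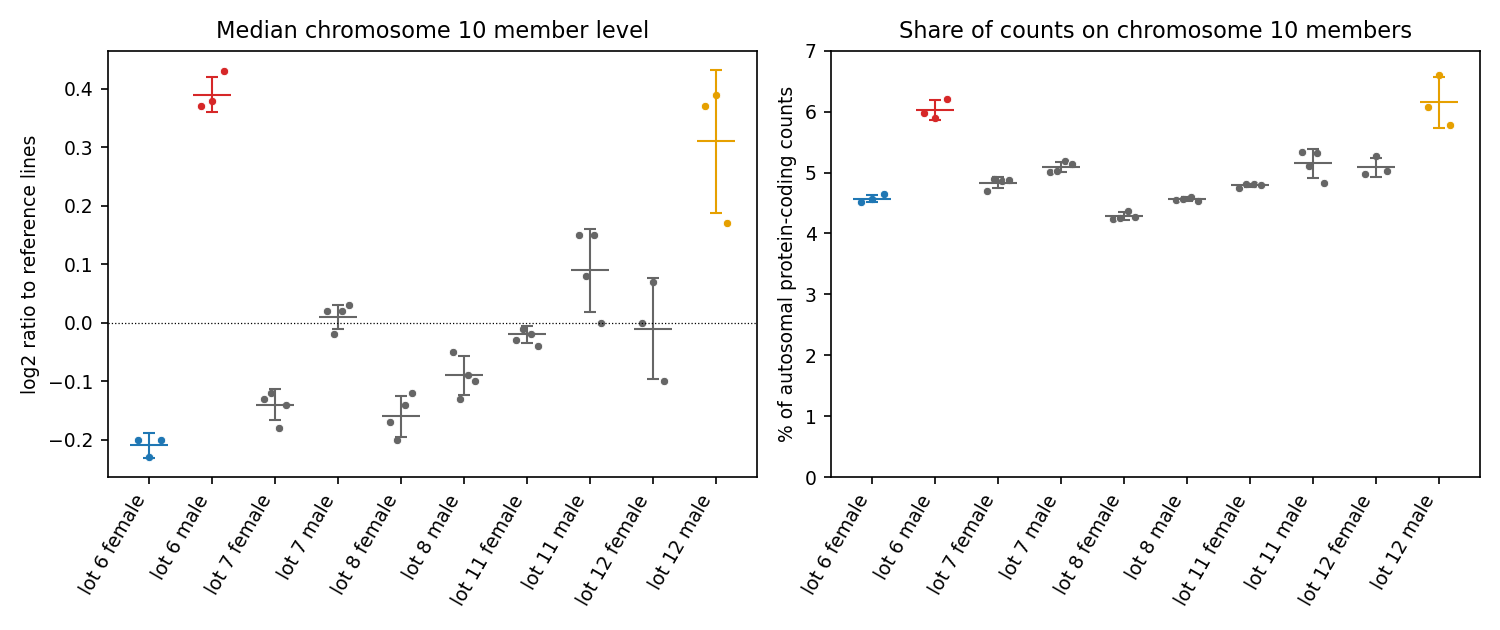
Median chromosome 10 member level (log2 ratio to reference lines, left) and share of autosomal protein-coding counts on the members (%, right) in each library (points), with the mean (long bar) and SD (whiskers) of each line. The lot 6 male and lot 12 male lines lie above all others on the right axis, at 6.03 and 6.15%, while the other lines lie between 4.28 and 5.15%.

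The share of counts and a scale common to all lines put the same male lines highest. The members took 6.03 ± 0.162% of the counts on autosomal protein-coding genes in the lot 6 male line and 6.15 ± 0.419% in the lot 12 male line (SD, n = 3). The other 8 lines had 4.28 to 5.15%, and the lot 6 female line, at 4.57 ± 0.0648%, was not the lowest of them. Set against the mean of all 10 lines, the order of the median level was lot 6 male at 0.375, lot 12 male at 0.258, lot 11 male at 0.067 and lot 7 male at 0.010. Below these came lot 11 female at -0.055, lot 12 female at -0.079, lot 8 male at -0.088, lot 7 female at -0.144, lot 8 female at -0.148 and lot 6 female at -0.233. The libraries of neighbours overlapped between lot 11 male and lot 7 male, lot 11 female and lot 12 female, lot 12 female and lot 8 male, and lot 7 female and lot 8 female. They did not overlap between the lot 6 male and lot 12 male lines, nor, by a narrow gap of 0.129 to 0.128, between the lot 12 male and lot 11 male lines, nor between the lot 8 female and lot 6 female lines.

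The shift was shared along the length of the chromosome in all 3 of the lines that stood apart most. In 13 windows of 10 Mb, each with 9 to 111 members, the median was above that of the other autosomes in all 13 windows in the lot 6 male line, from 0.26 to 0.49. It was above in all 13 in the lot 12 male line, from 0.18 to 0.59, and below in all 13 in the lot 6 female line, from -0.38 to -0.06. The lot 8 female line was also below in all 13 windows, from -0.28 to -0.02, and the lot 7 female line in 12, from -0.31 to 0.02. These medians use line means, and single libraries crossed 0 in some windows. The highest lot 6 female library stood at 0.04 from 20 to 30 Mb, 0.03 from 30 to 40 Mb and 0.04 from 100 to 110 Mb. From 100 to 110 Mb the lowest lot 12 male library stood at -0.08, and the lowest lot 6 male library at 0.16. With 24 windows of 5 Mb, both male lines were above in 24, and the lot 6 female line was below in 21. Its 3 windows above the other autosomes were those from 15 to 20 Mb, 20 to 25 Mb and 65 to 70 Mb, at 0.17, 0.04 and 0.18, with 10, 15 and 11 members.

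**Figure D2:**
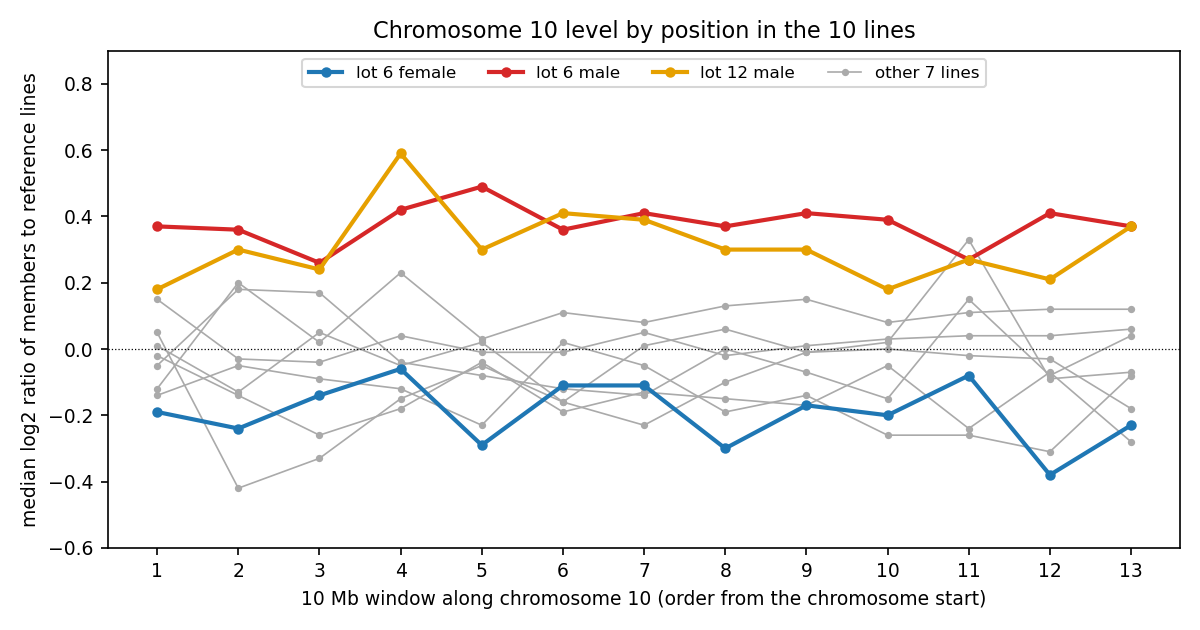
Median log2 ratio of members to reference lines in 13 windows of 10 Mb, ordered from the start of chromosome 10, with 1 line per cell line. The lot 6 male line stays between 0.26 and 0.49 and the lot 6 female line between -0.38 and -0.06 along the whole chromosome, and the lot 12 male line peaks at 0.59 in the window from 30 to 40 Mb.

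A few windows stood apart within a line by their medians, and they were picked after the values were seen. In the lot 8 male line, the window from 10 to 20 Mb stood at -0.42, and 19 of its 25 members lay below 0 and 5 above. Over the whole chromosome, 39.1% of the members lay above 0 in that line. The window's lowest member was Rab32, a small GTPase of melanosome and mitochondrial traffic, at 8.77 CPM against a median of 26.61 CPM over the reference lines. Other large negative ratios came from genes near 0, such as Phactr2 at 0 CPM and Adgrg6 at 0.25 CPM. The abundant Sf3b5 and Ltv1, at 411 and 82.5 CPM, were among those above 0, at 0.23 and 0.30. Over the whole chromosome, the most abundant 170 members of that line had a median of 0.0 and the least abundant 170 of -0.33. Of the lot 12 male line's windows, that from 30 to 40 Mb was highest, at 0.59. In that window 21 of 25 members lay above 0, near the share of 81.1% over all members in that line. The window's large ratios included genes of low abundance such as Calhm5, at 4.48 CPM against 0.50 CPM. The abundant Rwdd1 and Hddc2 had ratios of 0.26 and 0.09. The lot 12 female line's windows from 10 to 20 Mb and from 20 to 30 Mb stood at 0.18 and 0.17, and in the lot 11 female line that from 100 to 110 Mb, with 9 members, stood at 0.33.

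Chromosome 10 was not the only autosome with a median away from 0, as the plot of all 19 autosomes shows. In the lot 6 male line it was the highest, at 0.40, with chromosome 15 next at 0.33 and the lowest at -0.15. For the lot 12 male line chromosome 15 was highest, at 0.35, and chromosome 10 next, at 0.31. For the lot 6 female line, chromosome 14 was lowest at -0.68 and chromosome 11 next at -0.30, below chromosome 10 at -0.20, and chromosome 2 was highest at 0.32. The typical size of another chromosome's median was 0.035 in the lot 6 female line, 0.04 in the lot 6 male line and 0.08 in the lot 12 male line.

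**Figure D3:**
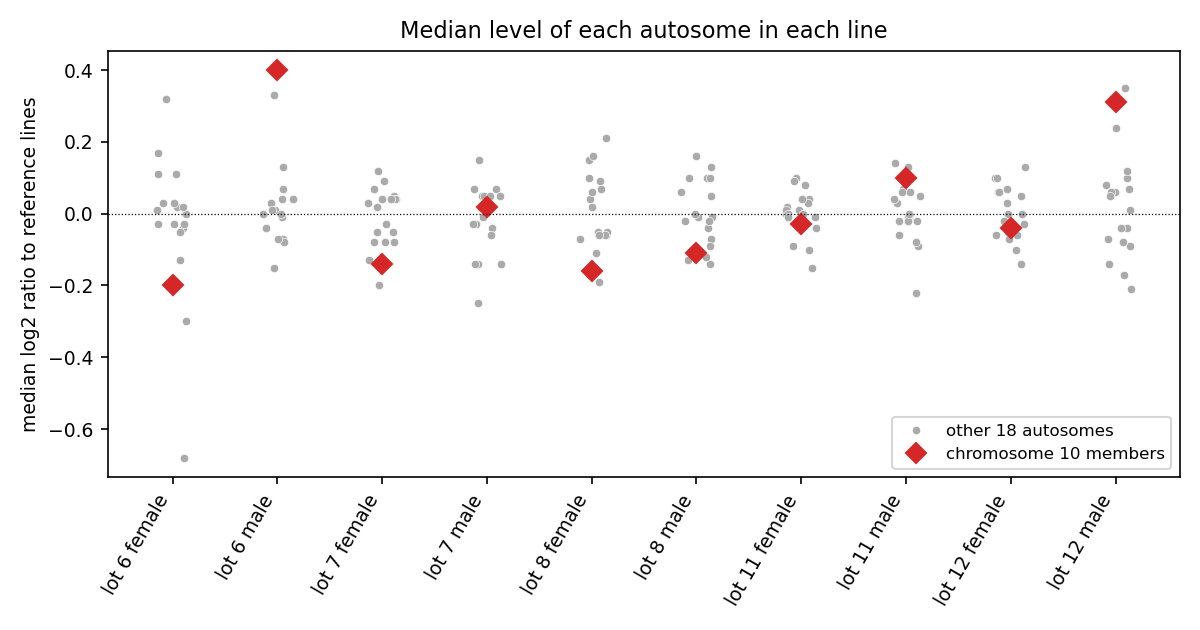
Median log2 ratio to reference lines of each autosome in each line, with chromosome 10 members as diamonds and the other 18 autosomes as grey points. Chromosome 10 is the highest autosome in the lot 6 male line, at 0.40, and in the lot 6 female line it lies at -0.20, above chromosome 14 at -0.68.

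The spread of the members' ratios was narrower for abundant genes. Members were put into 3 classes by mean log2 CPM. The most abundant class in the lot 6 male line had a median of 0.50 with quartiles of 0.36 and 0.63, and 96.5% of its 170 genes stood above the median of the other autosomes. Genes of the same abundance on other autosomes had a median of 0.09. The middle and lowest classes had medians of 0.39 and 0.13, against -0.01 and -0.16 on other autosomes, so that the difference from genes of like abundance was 0.42, 0.40 and 0.30 from the highest to the lowest class. For the lot 12 male line the 3 classes had medians of 0.29, 0.33 and 0.35, and the difference from genes of like abundance was 0.34, 0.30 and 0.30. For the lot 6 female line the medians were -0.27, -0.19 and -0.01, and the difference was -0.19, -0.21 and -0.12. The 19 genes that the rule leaves out lay on the same sides in the lot 6 lines, and their own median was 0.63 in the male and -0.56 in the female line. It was 0.13 in the lot 12 male line. Among members that varied least between the reference lines, 93.7% of 254 were above the other autosomes in the lot 6 male line, with a median of 0.47.

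**Figure D4:**
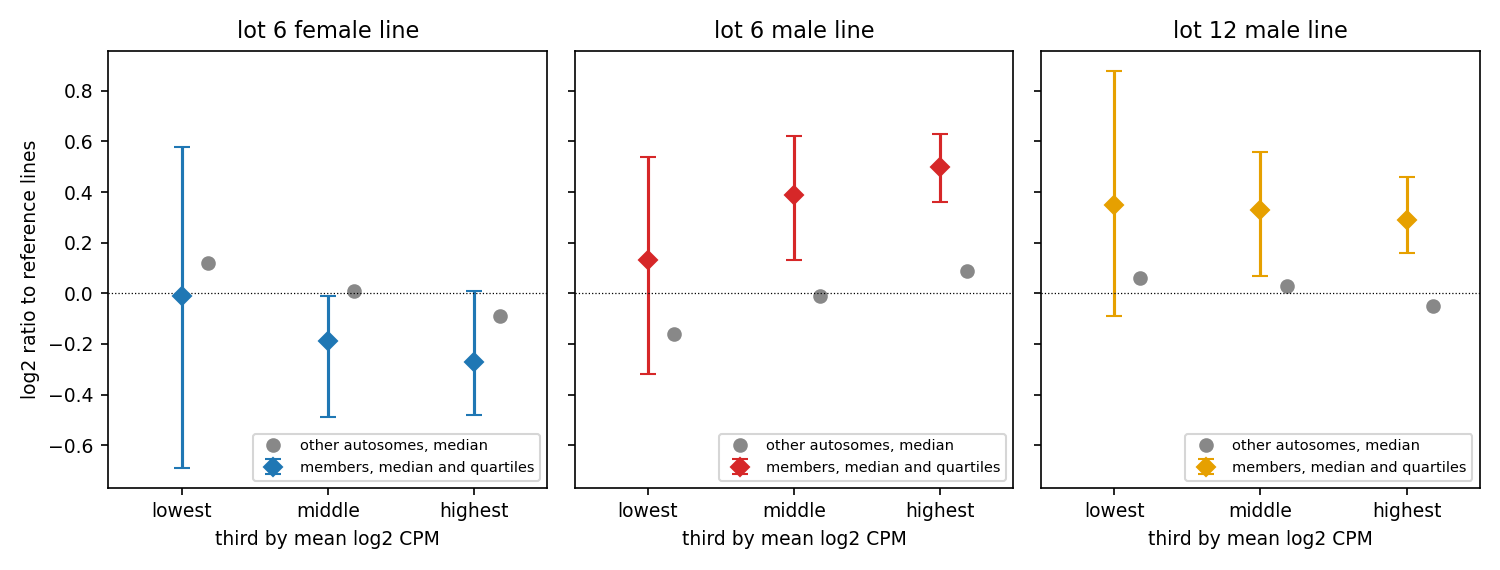
Median log2 ratio to reference lines of the members (diamonds, with quartiles as whiskers) and of genes of the same abundance on other autosomes (grey points), in 3 classes of near-equal size by mean log2 CPM. For the lot 6 male line the quartiles narrow to 0.36 and 0.63 in the most abundant class, where the other autosomes lie at 0.09.

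Single genes were tested with edgeR's quasi-likelihood method over 12173 genes, among them 503 of the 509 members, with Benjamini-Hochberg adjusted p under 0.05. The lot 6 comparisons share their libraries with the difference that drew attention to the chromosome, so their counts are descriptions. With the lot 6 male line set against the 8 lines of other lots, 157 members were called higher, or 31.2%, where 7.23% of all genes tested were, and 11 were called lower, or 2.19%, against 4.53% of all genes. For its female partner 112 members were lower, or 22.3%, against 13.8% of all genes, and 42 were higher, or 8.35%, against 16.4%. Median log2 fold changes of the members were 0.36 in the male and -0.17 in the female line, and over all genes -0.01 and 0.02. With the reference limited to lines of the same sex, 98 members were higher in the lot 6 male line, and the share over all genes for that reference is not given here.

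The lot 12 male line did not enter the difference that drew attention to the chromosome, but it shares reference lines with the lot 6 comparisons and is itself 1 of their 8. Against the 6 lines of lots 7, 8 and 11, 147 members were higher there, or 29.2%, where 11.4% of all genes were, and 11 were lower, or 2.19%, against 8.05%. The median log2 fold change of the members was 0.34, and 0.02 over all genes. Among the remaining lines, 75 members were lower in the lot 7 female line, 14.9% against 7.53% of all genes, and 70 in the lot 8 female line, 13.9% against 6.86%. In the lot 8 male line 66 were lower, 13.1% against 9.18%. In the lot 11 male line 32 were higher, 6.36% against 4.48%.

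These tests take libraries as the unit, and with each line summed to 1 sample few calls were left. The edgeR fit on sums then called 2 members higher and 3 lower in the lot 6 female line, where 0.641 and 0.452% of all genes were called, and 0 members in the lot 6 male and lot 12 male lines, where 0 of all genes were. At an unadjusted p under 0.05, 108 members were higher in the lot 6 male line, or 21.5%, against 2.8% of all genes. The count was 90, or 17.9% against 5.91%, in the lot 12 male line, and 59 lower, or 11.7% against 8.63%, in the lot 6 female line. By line means, 223 members, or 44.3%, were higher in the lot 6 male line than in each of its 8 reference lines, against 11.9% of all genes. For the lot 12 male line 233, or 46.3%, lay above all 6, against 20.3%, and in the lot 6 female line 139, or 27.6%, lay below all 8, against 18.7%.

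The most abundant member of each 10 Mb window gives single genes along the chromosome, and apart from Akap12, Ccn2 and Myl6 their fitted fold changes lay above 0 in the lot 6 male line and below 0 in the female line. Mif, a cytokine that inhibits macrophage migration (75859353 to 75860240, minus strand), had 3340, 3460 and 2600 CPM in the lot 6 male libraries and 1410, 1150 and 1290 CPM in the lot 6 female libraries. Line means of the 8 reference lines ran from 1490 to 2420 CPM with a median of 2160 CPM, so the male line lay above all of them and the female line below. Its log2 fold change was 0.65 ± 0.08 (SE; edgeR adjusted p 6.85e-08) in the male line and -0.64 ± 0.09 (adjusted p 2.15e-07) in the female line. Mif in the lot 12 male libraries had 2830, 2580 and 1840 CPM, 0.28 ± 0.08 above the 6 reference lines (adjusted p 0.0137).

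Ppa1, the cytosolic inorganic pyrophosphatase (61648552 to 61674168, plus strand), had 607, 572 and 477 CPM in the lot 6 male libraries, all above the reference lines at 255 to 416 CPM. The lot 6 female libraries, at 324, 306 and 318 CPM, lay within that range. Its log2 fold change was 0.70 ± 0.10 (SE; edgeR adjusted p 3.61e-06) in the male line and -0.11 ± 0.11 (adjusted p 0.518) in the female line, and 0.02 ± 0.11 (adjusted p 0.924) in the lot 12 male line. Slc25a3, the mitochondrial phosphate carrier (91116574 to 91124059, minus strand), likewise had 1400, 1310 and 1180 CPM in the male and 774, 675 and 785 CPM in the female libraries, with reference lines at 698 to 979 CPM. For both genes every male library lay above the reference lines, while the female libraries lay within or, in replicate 2 for Slc25a3, below their range.

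Sf3b5, a subunit of the SF3b splicing complex (13005343 to 13009183, plus strand), had 680, 736 and 558 CPM in the lot 6 male libraries and 319, 278 and 300 CPM in the female libraries, with reference lines at 262 to 499 CPM. Its log2 fold change in the male line was 0.85 ± 0.08 (SE; edgeR adjusted p 4.51e-10). Its value in the lot 12 male line was 0.48 ± 0.09 (adjusted p 7.84e-05). Nap1l1, a histone chaperone (111473223 to 111498150, plus strand), showed more of its gap on the female side, with 359, 368 and 400 CPM in the lot 6 female libraries, 753, 755 and 807 CPM in the male libraries and 478 to 663 CPM in the reference lines. Its log2 fold changes were -0.67 ± 0.08 (adjusted p 4.27e-09) and 0.37 ± 0.07 (adjusted p 0.000202). Genes such as Mif, Nap1l1, Eef2, Naca and Myl6 have near-identical processed copies elsewhere in the genome, and how the authors' counting divided shared reads is not given in the sources used here, so their values carry that uncertainty.

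Of the other window genes, Rwdd1 (33996555 to 34019624), Gtf3c6 (40247703 to 40258108), a subunit of the RNA polymerase III factor TFIIIC, Anapc16 (59987409 to 60003135) of the anaphase-promoting complex and Ccdc59 (105841067 to 105847833) had log2 fold changes of 0.44, 0.49, 0.55 and 0.59 in the lot 6 male line, each called higher. Rwdd1, Gtf3c6 and Ccdc59 were called lower in the lot 6 female line, at -0.54, -0.41 and -0.30, and Anapc16 stood at -0.07 without passing. The call of Ccdc59 in the female line was lost without its replicate 2, at -0.21. Eef2, the elongation factor of translation (81176631 to 81182498), was at 0.25 ± 0.08 (SE; edgeR adjusted p 0.0361) in the lot 6 male line and at -0.42 ± 0.09 (adjusted p 0.000156) in the female line. Its male call was lost without replicate 1, at 0.14, or replicate 2, at 0.29. Rwdd1 and Ccdc59 were called higher in the lot 12 male line, at 0.26 and 0.27, whereas Gtf3c6 and Anapc16, at 0.07 and 0.20, did not pass.

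Myl6, a light chain of non-muscle myosin and the most abundant member (128490860 to 128494145), did not follow the lot 6 pattern, with 4510, 4520 and 4460 CPM in the male libraries and 5160, 4530 and 4610 CPM in the female libraries. It was higher in the lot 12 male line by 0.80 ± 0.07 (SE; edgeR adjusted p 1.66e-12), at 6530, 7320 and 5040 CPM. Akap12, a scaffold that anchors protein kinase A (4266380 to 4359470), was lower in the lot 6 male line by -0.85 ± 0.21 (adjusted p 0.00513), with 83.3, 123 and 140 CPM, a call lost without replicate 1, at -0.66. Ccn2, a secreted matricellular protein (24595442 to 24598683), varied the most, with 239 ± 10.9 CPM in the female and 485 ± 60.4 CPM in the male line of lot 6, and 2020 ± 397 CPM in the male line of lot 12 (SD, n = 3 each). Its reference lines alone ran from 195 to 2020 CPM.

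**Figure D5:**
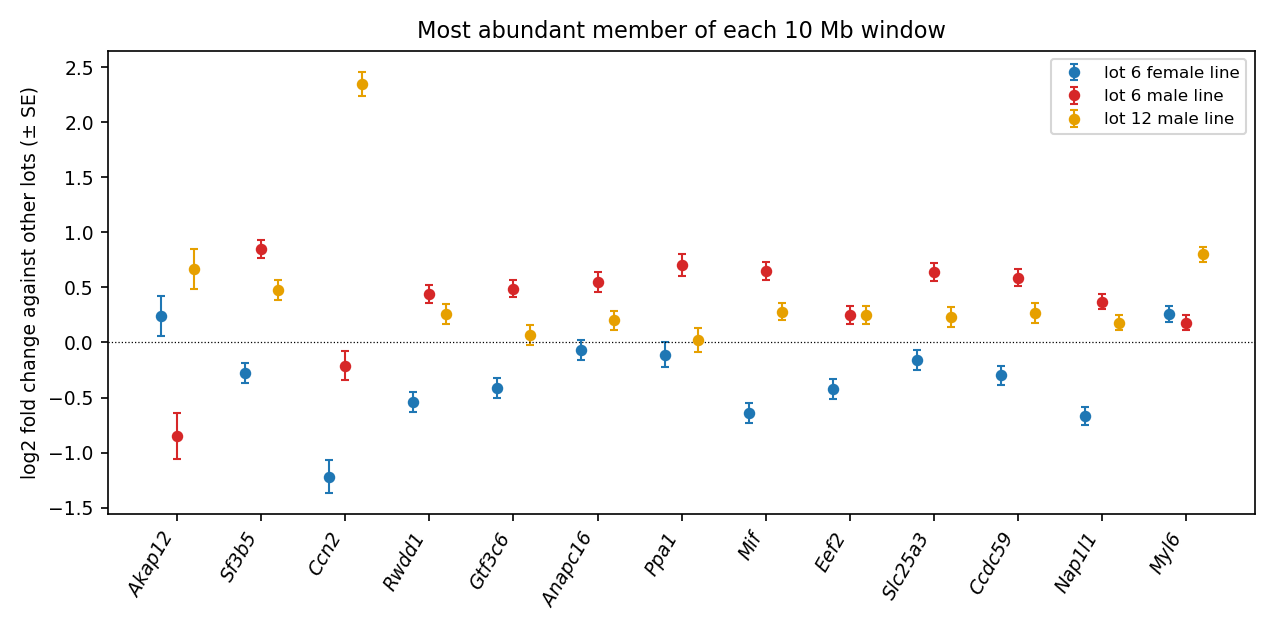
Log2 fold change against the lines of other lots (points, with SE as whiskers) of the most abundant member in each of 13 windows of 10 Mb, ordered along the chromosome, in the lot 6 female, lot 6 male and lot 12 male lines. From Sf3b5 at 0.85 to Nap1l1 at 0.37 the lot 6 male values lie above 0 except that of Ccn2, at -0.21, and the lot 6 female values lie below 0 from Sf3b5 to Nap1l1.

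The 6 groups of members by role followed the chromosome to different extents. The groups and their members had been chosen with earlier results of these data known, so their counts are not tests. They stand beside the shares over all genes given above, which cover genes of any abundance. The groups were not matched for abundance. In both lot 6 lines the medians of the abundance classes given above lay farther from 0 in more abundant classes, and in the lot 12 male line they did not. The part of abundance in the differences between groups was not tested. Of 20 genes of protein synthesis and folding, 16 were higher and 0 lower in the lot 6 male line, with a median log2 fold change of 0.46. In the lot 6 female line 10 were lower and 0 higher, with a median of -0.40, and in the lot 12 male line 11 were higher and 0 lower, with a median of 0.34. Naca, a subunit of the complex that meets nascent chains at the ribosome, had 3230, 3240 and 2680 CPM in the lot 6 male libraries and 1770, 1550 and 1640 CPM in the female libraries. The male libraries lay above the means of the reference lines, at 1660 to 2370 CPM. A single reference library, lot 12 male replicate 1 at 2740 CPM, lay above lot 6 male replicate 3.

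Cct2, a subunit of the cytosolic chaperonin, had 657, 696 and 600 CPM in the lot 6 male libraries and 288, 262 and 305 CPM in the female libraries. These lay outside the range of the reference line means, 345 to 512 CPM, on either side. A single reference library, lot 12 female replicate 3 at 294 CPM, lay below lot 6 female replicate 3. The log2 fold changes of Cct2 were 0.55 ± 0.08 (SE; edgeR adjusted p 2.62e-06) in the male and -0.64 ± 0.09 (adjusted p 2.55e-07) in the female line. Pa2g4, a growth-regulated protein that binds ribosomes, was at 0.75 ± 0.12 (adjusted p 3.84e-05) in the male and -0.56 ± 0.14 (adjusted p 0.00208) in the female line. Ddx21, a nucleolar RNA helicase of ribosome production, was at 0.47 and -0.85, and its male call was lost without replicate 1, at 0.42. Hsp90b1, a chaperone of the endoplasmic reticulum, was called higher in the lot 12 male line, at 0.59 ± 0.11 (adjusted p 0.000112), with 1250, 1610 and 1290 CPM.

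Of 18 mitochondrial genes tested, 14 were higher and 0 lower in the lot 6 male line, with a median log2 fold change of 0.55. Of the same genes, in the lot 6 female line 7 were lower and 0 higher (median -0.25), and in the lot 12 male line 5 were higher and 0 lower (median 0.26). Mrpl54, a protein of the mitochondrial ribosome, had 813, 768 and 663 CPM in the lot 6 male libraries and 346, 354 and 321 CPM in the female libraries, against 381 to 551 CPM in the reference lines. Its log2 fold change in the lot 12 male line was -0.16 ± 0.08 (SE; edgeR adjusted p 0.211). Timm13, which carries proteins across the space between the mitochondrial membranes, was at 0.64 ± 0.07 (adjusted p 9.25e-09) in the lot 6 male and -0.44 ± 0.08 (adjusted p 2.69e-05) in the lot 6 female line.

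Cs, the citrate synthase of the Krebs cycle, had 368, 370 and 329 CPM in the lot 6 male and 193, 179 and 198 CPM in the lot 6 female libraries, outside the reference range of 222 to 300 CPM on either side. Atp5b, a subunit of ATP synthase, was at 0.43 ± 0.07 (SE; edgeR adjusted p 8.51e-06) in the lot 6 male line and 0.29 ± 0.07 (adjusted p 0.00177) in the lot 12 male line. Shmt2, which feeds mitochondrial one-carbon metabolism, was at 0.57 ± 0.11 (adjusted p 0.000263) in the lot 6 male and -0.64 ± 0.13 (adjusted p 0.000105) in the lot 6 female line. Tfam, which packages mitochondrial DNA, was called lower in the lot 6 female line, at -0.57 ± 0.14 (adjusted p 0.00201). Its call in the male line, at 0.40, was lost without any 1 of the 3 libraries, at 0.35 to 0.42.

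Genes of the same functions on other chromosomes also stood higher in the lot 6 male line, by less. Chosen after the values were seen, 151 genes of the mitochondrial ribosome and respiratory chain outside chromosome 10 had a median of 0.15 there, against 0.59 for the 7 members of that kind. In the lot 12 male line these medians were -0.16 and 0.16. For 96 translation factors, aminoacyl-tRNA synthetases and chaperonin genes elsewhere, the median was 0.18 in the lot 6 male and -0.19 in the lot 6 female line, against 0.58 and -0.58 for 4 members. Ribosomal protein genes took 21.6 to 25.1% of counts in the lot 6 male libraries, 16.2 to 18.3% in the lot 6 female libraries and 18.3 to 21.7% in the lot 12 male libraries. Their part in the levels of these 2 groups was not tested.

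Among genes of transcription and chromatin, 4 of 18 were higher and 0 lower in the lot 6 male line, and all 18 had a fold change above 0, with a median of 0.31. In the lot 6 female line 2 were lower and 0 higher (median -0.17), and in the lot 12 male line 7 were higher and 0 lower (median 0.29). Smarcb1, a core subunit of the SWI/SNF remodelling complex, had 225, 214 and 220 CPM in the lot 6 male, 236, 223 and 183 CPM in the lot 12 male and 141, 132 and 148 CPM in the lot 6 female libraries. Both male lines were called higher, at 0.46 and 0.45. Arid5b, a DNA-binding cofactor, was lower in the lot 6 female line by -0.58 ± 0.15 (SE; edgeR adjusted p 0.00271) and higher in the lot 12 male line by 0.96 ± 0.13 (adjusted p 5.67e-07). In the lot 6 male line it stood at 0.32 ± 0.14 (adjusted p 0.14).

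Signalling genes were mixed. Of 18 tested, 5 were higher and 0 lower in the lot 6 male line (median 0.33), 3 higher and 2 lower in the lot 6 female line (median -0.19), and 7 higher and 0 lower in the lot 12 male line (median 0.45). Sgk1, a kinase induced by serum and glucocorticoids, had 236, 210 and 181 CPM in the lot 6 male and 54.6, 53.3 and 39.0 CPM in the lot 6 female libraries. These lay outside the range of the reference line means, 67.4 to 169 CPM, on either side. Single libraries overlapped, since lot 11 male replicates 1 and 3, at 235 and 185 CPM, lay above lot 6 male replicate 3. For Sgk1 the log2 fold changes in the lot 6 lines follow, male line first. Its log2 fold changes were 0.83 ± 0.11 (SE; edgeR adjusted p 6.28e-07) and -1.26 ± 0.14 (adjusted p 1.08e-09). Ifngr1, the ligand-binding chain of the interferon gamma receptor, was instead higher in all 3 lines, by 0.60 ± 0.13 in the lot 6 female, 0.67 ± 0.13 in the lot 6 male and 0.88 ± 0.13 in the lot 12 male line. Map2k2, the kinase MEK2 of the Ras pathway, was at 0.35 in the lot 6 male and 0.32 in the lot 12 male line, and the lot 6 call was lost without replicate 1 or 3, at 0.29 and 0.36. Stat6, a transcription factor of interleukin-4 signalling, was low in the lot 6 female line, with 0, 0.576 and 0.999 CPM against 0.563 to 18.2 CPM in the reference lines.

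Of 19 genes of the cytoskeleton and membrane traffic tested, 13 were higher and 0 lower in the lot 12 male line (median 0.42), 3 higher and 1 lower in the lot 6 male line (median 0.21), and 3 higher and 3 lower in the lot 6 female line (median 0.03).

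Matrix and cell surface genes included several that stood against the chromosome's level. Of 16 tested, 4 were higher and 2 lower in the lot 6 female line (median -0.01), 5 higher and 0 lower in the lot 6 male line (median 0.16), and 9 higher and 2 lower in the lot 12 male line (median 0.66). Col18a1, which encodes a basement membrane collagen, had 144, 136 and 104 CPM in the lot 6 female, 58.7, 47.6 and 85.1 CPM in the lot 6 male and 86.7, 148 and 59.8 CPM in the lot 12 male libraries. It was called higher in all 3 lines, by 2.44 ± 0.15, 1.44 ± 0.17 and 2.41 ± 0.16. Col6a1 and Col6a2, neighbours that encode chains of collagen VI, were higher in the lot 6 female line by 2.09 ± 0.19 and 2.62 ± 0.25, at 127 ± 12.3 and 37.6 ± 3.73 CPM (SD, n = 3). In the lot 6 male line they stood at 0.04 and -0.83 and did not pass.

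Timp3, an inhibitor of matrix metalloproteases, was higher in the lot 12 male line by 1.93 ± 0.14 (SE; edgeR adjusted p 4.14e-14), with 83.5, 98.3 and 108 CPM. Its partner, the lot 12 female line, was higher as well, by 1.79 ± 0.14 (adjusted p 6.18e-13). The female minus male difference of Timp3 in lot 12 was -0.14 ± 0.22 (adjusted p 0.853). Lama4, a laminin chain, was higher in the lot 12 male line by 3.70 ± 0.53 (adjusted p 9.27e-07) and in the lot 6 female line by 2.46 ± 0.53 (adjusted p 0.000332), at 11.6 ± 3.18 and 7.44 ± 3.53 CPM (SD, n = 3). The fibroblast and pericyte markers, led by Acta2 at 14800 CPM in the lot 6 female and 10900 CPM in the lot 12 male line, summed highest in these 2 lines through Acta2. Col1a1 and Col1a2, low in the lot 6 female line as given above, were at 121 and 602 CPM in the lot 12 male line. The part of these markers in the matrix group was not tested.

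The members with the largest folds in the lot 6 lines lay on either side of the chromosome's median. Among called members whose mean log2 CPM reached 4, the 5 highest in the male line were Col18a1, Cdc40, a splicing factor, at 1.09 ± 0.14, Slc19a1, the reduced folate carrier, at 1.06 ± 0.15, Unc5b, a netrin receptor, at 0.98 ± 0.14, and Nabp2, which binds single-stranded DNA in repair, at 0.93 ± 0.12. Cdc40 had 70.5, 75.5 and 69.6 CPM in that line, above the reference lines at 22.9 to 47.4 CPM. Under the same limit, which leaves out low genes such as Stat6, the 5 lowest in the female line were Aig1, a hydrolase of fatty acid esters, at -1.91 ± 0.33, Agpat3, an acyltransferase of phospholipid synthesis, at -1.30 ± 0.17, Sgk1, Adat2, a subunit of the deaminase that edits transfer RNA, at -1.22 ± 0.20, and Ccn2 at -1.22 ± 0.15. Those with large folds upward there included Msrb3, a methionine sulfoxide reductase, at 1.27 ± 0.21, and Lims1, an adaptor of integrin adhesions, at 0.91 ± 0.09. Aig1 and Adat2, close neighbours on the chromosome, were also lower in the lot 12 male line, at -2.09 ± 0.34 and -0.82 ± 0.19.

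Within each lot, the female line stood below the male line over the chromosome as a whole. The median of the female minus male log2 ratio, relative to the other autosomes, was -0.59 in lot 6, which chose the chromosome, and -0.17, -0.11, -0.13 and -0.31 in lots 7, 8, 11 and 12 in turn. Chromosome 12, at -0.15 to -0.01, was the other autosome below 0 in all 5 lots. Chromosome 10 was the lowest autosome in lot 12 alone, with chromosome 15 next at -0.29. Chromosome 14 stood lower in lot 6, at -0.69, chromosome 9 in lot 7, at -0.26, and chromosome 19 in lot 11, at -0.25. In lot 8 chromosomes 2, 5, 8 and 19 stood lower, at -0.16, -0.12, -0.12 and -0.13. In lot 6, 182 members were lower and 23 higher in the female line, or 36.2 and 4.57%, where 14.0 and 13.4% of all genes were called; nothing is read from this count. In lot 7, 53 were lower and 12 higher, or 10.5 and 2.39%, against 5.44 and 5.38% of all genes. In lot 8, 30 were lower and 31 higher, or 5.96 and 6.16%, against 5.18 and 6.47%, near the background, and the lower count was 17 without female replicate 3 and 18 without male replicate 2. In lot 11, 21 were lower and 3 higher, or 4.17 and 0.596%, against 2.79 and 1.5%. The lower count of lot 11 was 13 without female replicate 3 and 11 without male replicate 1, and the higher count was 1 without female replicate 3 or male replicate 4. For the fits without a library, in lots 8 and 11, shares over all genes are not given here. Moves of these counts cannot be told apart from a change in the number of genes called at large. In lot 12, 46 were lower and 6 higher, or 9.15 and 1.19%, against 2.06 and 1.7%.

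The lot 12 count moved with single libraries. Replicate numbers paired the lot 12 lines, and with the number as a block, in a fit of that lot alone, 78 members were lower, while the same fit without the block gave 8. Without male replicate 3 the count was 77, without male replicate 1 it was 19, without male replicate 2 it was 22, and without female replicate 3 it was 26. The shares over all genes in these fits are not given here. The moves therefore cannot be told apart from a change in the number of genes called at large. Among named genes, Mif was lower in the female line of lot 12 by -0.52 ± 0.11 (SE; edgeR adjusted p 0.00351), of lot 7 by -0.50 ± 0.10 (adjusted p 0.000317) and of lot 8 by -0.44 ± 0.10 (adjusted p 0.00175), and stood at -0.11 ± 0.10 (adjusted p 0.657) in lot 11. Naca was lower in the same 3 lots, by -0.49, -0.27 and -0.30, and stood at -0.15 in lot 11. Slc19a1 was lower in lot 12 by -1.93 ± 0.23 (adjusted p 9.93e-08) and did not pass in lots 7, 8 and 11, and the same held for Ptprk, a receptor phosphatase of cell contacts, at -0.93 ± 0.19 (adjusted p 0.002). Hnrnph3, which binds RNA in splicing, was lower in lots 7 and 12, by -0.83 ± 0.18 and -0.93 ± 0.21. Timp3 was higher in the female line of lot 7, by 1.48 ± 0.20, and lower in that of lot 8, by -1.03 ± 0.22.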

How the data were processed

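Expression had been measured by BRB-seq, which counts the 3′ ends of polyadenylated RNA, in 36 libraries of 10 lines. Values were raw gene counts as deposited by the authors. Tools named in the submitters' processing notes were Subread 2.0.2, STAR 2.7.6a and cutadapt 2.10, with GRCm38 as the build; whether molecular identifiers were collapsed, and whether strand was used, is not given in the sources used here, so depth limits cover counting error only. Of 46078 gene entries, 45229 were matched to GENCODE M21 by identifier, and the rest held 0.0295% of counts. Chi-square divided by its degrees of freedom was 5.49 to 22.5 over 48 same-line pairs of libraries, of which 0 were identical.

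Counts were fitted with edgeR 4.0.16 (R 4.3.3) by quasi-likelihood, with 1 coefficient per line, its expression filter by line and TMM scaling, with Benjamini-Hochberg adjustment across all 12173 genes tested (threshold 0.05). Standard errors were taken from the fold change and its F statistic. CPM use TMM-scaled totals, and log2 levels a prior count of 2. Medians over members have no test. Alternatives were RLE scaling, library totals alone, no filter, DESeq2 1.42.0, a prior count of 0.5, line sums, other references, a minimum of 1000 counts, the left-out genes, the mean, other window sizes, a replicate block and leaving out each library.

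Named genes were the 5 largest called folds per direction in each lot 6 line and in the female minus male comparisons of lots 7, 8, 11 and 12, among members whose mean log2 CPM reached 4. To these were added the most abundant member of each window and the members of 6 role lists, of which part is described. Predicted genes were skipped. Segment genes and genes of the same functions elsewhere were added after values were seen. The members, lists and tests were chosen with earlier results of these data known. Replicate numbers paired libraries most clearly in lot 12, where deviations of same-numbered libraries correlated at 0.392 to 0.528 over 3 pairs. In lot 11 same-numbered pairs were at 0.0955 to 0.253, above the other pairs, which reached 0.0806. In lots 7 and 8 the pairs of replicate 4 were highest, at 0.265 and 0.302, where differently numbered pairs reached 0.0403 and 0.099. Same-numbered pairs of lot 6 ran from -0.118 to 0.116. The main fit has no term for the replicate number. The fit was tested on simulated data. Plots were drawn with matplotlib 3.10.9, and tables made with pandas 2.3.3 and numpy 2.4.6 under Python 3.11.15.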

Additional observations from a re-analysis of the deposited data

Results flagged for a closer look

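Groups of 4 libraries were checked for single genes, for the chromosome 10 level and for its share of counts. A single library stood far from the other 3 of its line in 19 of 294 combinations of measure and line, or 6.46%. Chance marks about 1 in 20. Gtf3c6 was marked in 3 lines, with 246 CPM in lot 8 female replicate 2 against 192 to 197 CPM in the others, 278 CPM in lot 8 male replicate 2 against 206 to 214 CPM, and 254 CPM in lot 11 male replicate 3 against 220 to 225 CPM. In the lot 7 female line, Lims1 was at 102 CPM in replicate 1 against 123 to 125 CPM, Adat2 at 37.1 CPM in replicate 3 against 30.1 to 30.9 CPM, and in replicate 4 Tfam was at 35.9 CPM against 44.5 to 45.6 CPM and Map2k2 at 123 CPM against 145 to 146 CPM. In the lot 7 male line, Col18a1 was at 40.5 CPM in replicate 3 against 50.5 to 51.5 CPM, and in replicate 4 Shmt2 was at 64.2 CPM against 58.0 to 58.1 CPM and Smarcb1 at 149 CPM against 165 to 168 CPM. In lot 8 female replicate 4, Eef2 was at 1460 CPM against 1040 to 1110 CPM and Myl6 at 2400 CPM against 3030 to 3130 CPM, and Timp3 was at 5.24 CPM in replicate 1 against 11.8 to 12.9 CPM. In the lot 8 male line, Col6a1 was at 12.4 CPM in replicate 1 against 19.5 to 20.1 CPM, Msrb3 at 3.16 CPM in replicate 1 against 8.41 to 9.26 CPM, and Ddx21 at 306 CPM in replicate 3 against 343 to 348 CPM. In lot 11, Pa2g4 was at 472 CPM in female replicate 4 against 583 to 602 CPM, Map2k2 at 189 CPM in female replicate 3 against 145 to 151 CPM, and Nap1l1 at 547 CPM in male replicate 4 against 636 to 652 CPM.

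For 37 of the genes described above, the female minus male log2 difference in lot 6, less its mean over the other 4 lots, passed an adjusted p under 0.05 in edgeR's quasi-likelihood fit. That lot 6 difference chose the chromosome. Part of these genes were named from the lot 6 lines set against other lots, which share its libraries. The values are therefore descriptions, and other members that also passed are not listed. Of all 503 members tested, 122 passed below 0 and 18 above 0, or 24.3 and 3.58%. Over all genes tested these shares were 10.2 and 9.1%. The difference was below 0, so that the female line was relatively lower in lot 6, for Aig1 at -2.31, Sgk1 at -1.81, Adat2 at -1.81, Agpat3 at -1.44, Ccn2 at -1.25, Slc19a1 at -1.05, Shmt2 at -1.02, Arid5b at -0.98, Unc5b at -0.97, Ddx21 at -0.96, Pa2g4 at -0.96, Mrpl54 at -0.92, Timm13 at -0.89, Mif at -0.89, Cct2 at -0.88, Nabp2 at -0.87, Nap1l1 at -0.85, Cdc40 at -0.82, Tfam at -0.78, Rwdd1 at -0.78, Sf3b5 at -0.73, Cs at -0.69, Ccdc59 at -0.66, Gtf3c6 at -0.65, Naca at -0.58, Ppa1 at -0.53, Slc25a3 at -0.53, Anapc16 at -0.46, Eef2 at -0.45, Map2k2 at -0.43 and Atp5b at -0.33. It was above 0 for Akap12 at 0.94, Col18a1 at 1.89, Col6a1 at 1.94, Col6a2 at 3.58, Msrb3 at 1.26 and Lims1 at 0.96.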

How the results depend on the processing

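Over RLE factors, library totals, a prior count of 0.5, the left-out genes, a higher count minimum and other references, the chromosome 10 level was above 0 in the lot 6 male line, from 0.31 to 0.46, and below 0 in the lot 6 female line, from -0.27 to -0.13. The cause of each shift was not tested. With a minimum of 1000 counts the levels were 0.43 and -0.26, with members of below-median SD 0.46 and -0.27, with reference lines of the same sex 0.31 and -0.13, and with the lot 12 male line out of the reference 0.43 and -0.18, for the male and female lines in turn. The mean in place of the median gave 0.35 in the male line. With 5 Mb windows, 87.5% lay below 0 in the lot 6 female line. With line sums as units, edgeR called 2 members higher and 3 lower in the lot 6 female line, 0 and 0 in the lot 6 male line and 0 and 0 in the lot 12 male line. With reference lines of the same sex, 98 were higher in the lot 6 male line. For this and the other alternative fits except line sums, the share over all genes is not given here. Their counts show only how far the number of called members moved. A minimum of 1000 counts left the main fit and its genes tested unchanged, and only fewer members were counted. Among these, 26 were higher in the lot 6 female line and 6 lower in the lot 6 male line. In the lot 6 female minus male comparison 12 of them were higher. Library totals alone gave 5 higher in the lot 8 male line and 22 lower in the lot 12 female line, and no filter on low counts gave 11 higher in the lot 8 male line. With the replicate block, in a fit of each lot alone, 78 members were lower in the lot 12 female line and 5 higher in the lot 11 female line, and the lot 12 fit without the block gave 8 lower; the block moved no other count of members by over 1.5 times. Leaving out each library in turn gave levels of 0.37 to 0.40 in the lot 6 male and -0.21 to -0.20 in the lot 6 female line. Members higher then numbered 33 to 35 in the lot 6 female, 109 to 114 in the lot 6 male and 98 to 135 in the lot 12 male line, and members lower 82 to 88, 7 to 10 and 7 to 10. The lowest of these lower counts, 7, came without lot 6 male replicate 1 and without lot 12 male replicate 3. In the female minus male comparisons, leaving out libraries gave 17 to 22 higher and 156 to 170 lower in lot 6, 9 to 14 and 38 to 46 in lot 7, 24 to 27 and 17 to 29 in lot 8, 1 to 3 and 11 to 22 in lot 11, and 2 to 6 and 19 to 77 in lot 12. Same-numbered libraries of lots 6, 7, 8 and 11 correlated at -0.118 to 0.302.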
